A study of Mus musculus with 20 samples.

Results

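GATA6 bound 42403 regions of the mouse genome in at least 1 of the cell states studied, and 1052 of them (2.48%) are the subject here. These are Transient sites that GATA6 occupied alone, in chromatin classed as unmarked in ES cells. They were taken from the deposited table of GATA6 regions by its own classes. Of all regions, 16285 (38.4%) were Transient and 13654 (32.2%) were Transient without SOX17. In 8937 (21.1%) there was also no binding of the pluripotency transcription factors (PTFs: OCT4, SOX2 and ESRRB), and 1052 of these lay in the unmarked class. The classes rest on GATA6, SOX17 and PTF binding and on ES cell chromatin data. The binding course of the regions, and to a large part their low accessibility before induction, were therefore fixed by the choice and are described without a test.

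The assay was ATAC-seq, a measure of chromatin accessibility that uses Tn5 transposase to place adapters in exposed DNA, and it covered 20 samples. KH2 ES cells, from a cross of C57BL/6 and 129/Sv, carry a Gata6 cassette that doxycycline switches on, and were grown with LIF on mouse embryonic fibroblast feeders, which were removed before the assay. They gave 17 samples: 3 at d0 without doxycycline, 3 each after 8 h, 16 h, 1 day and 2 days of doxycycline, and 2 after 4 days. XEN cells, an established extraembryonic endoderm line of CD1 background that is wild type, with no cassette, no doxycycline and no LIF, gave 3 samples. All KH2 groups share the cassette, the feeders and LIF. By the study's methods XEN cells were grown on feeders too. XEN cells differ from day 4 cells in line, strain and medium as well, and these cannot be told apart. The induced cells are selected clones of a single ES cell line, and the titles of the groups were used although the treatment labels of 4 groups give longer exposures.

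GATA6 is a zinc finger transcription factor that reads the letters GATA, most strongly as AGATAA, and drives ES cells towards primitive endoderm (PrE), the layer that forms the yolk sac. A factor of this kind can bind DNA in closed chromatin, and its binding may or may not be followed by opening of the site. Transient sites are those where GATA6 is found soon after induction and is lost later. Unmarked stands for the class deposited as naive. By the study's methods GATA6 regions were grouped on scaled ES cell signal of histone marks. The class is thus relative to the other GATA6 regions and to the marks used.

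The summits of GATA6 binding are shown first for regions with different courses of accessibility and with strong GATA6 matches, to set letters beside values. Each line gives 101 bases of the plus strand of mm10 (GRCm38) around the summit, with the 13 letters of the best deposited GATA6 match in capitals. In the first 4 regions accessibility rose on day 2. The next 3 have strong matches and showed no rise of that size on day 2. Of these, the region near Tbl1x fell on day 2 and the Msn intron was highest in XEN cells. In the last 4 regions accessibility fell or was highest in XEN cells.
Antxr1 intron, chr6:87237421-87237521: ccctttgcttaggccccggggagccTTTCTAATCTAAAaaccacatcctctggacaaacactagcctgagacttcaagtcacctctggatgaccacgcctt
Gm36128 intron, nearest coding gene Trib2, chr12:15111851-15111951: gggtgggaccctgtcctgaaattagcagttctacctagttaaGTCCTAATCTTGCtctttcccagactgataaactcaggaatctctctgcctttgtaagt
intergenic near Cilp, chr9:65252915-65253015: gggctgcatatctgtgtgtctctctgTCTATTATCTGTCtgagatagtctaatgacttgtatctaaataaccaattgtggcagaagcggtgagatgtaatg
intergenic near Npsr1, chr9:24038263-24038363: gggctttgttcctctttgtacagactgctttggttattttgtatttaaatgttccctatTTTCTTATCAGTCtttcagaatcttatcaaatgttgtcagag
intergenic near Tbl1x, chrX:77426448-77426548: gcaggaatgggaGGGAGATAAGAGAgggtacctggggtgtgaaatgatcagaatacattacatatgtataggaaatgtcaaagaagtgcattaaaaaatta
intergenic near Fam19a5, chr15:86904532-86904632: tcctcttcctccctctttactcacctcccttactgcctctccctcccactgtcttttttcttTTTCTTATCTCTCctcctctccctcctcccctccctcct
Msn intron, chrX:96107977-96108077: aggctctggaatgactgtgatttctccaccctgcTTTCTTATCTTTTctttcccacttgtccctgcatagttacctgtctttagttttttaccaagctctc
Pid1 intron, chr1:84215233-84215333: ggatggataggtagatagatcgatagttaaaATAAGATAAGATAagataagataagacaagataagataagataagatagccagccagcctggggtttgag
intergenic near Tspan3, chr9:56172552-56172652: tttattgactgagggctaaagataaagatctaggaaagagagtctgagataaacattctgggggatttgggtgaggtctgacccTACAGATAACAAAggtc
Exoc4 intron, chr6:33530920-33531020: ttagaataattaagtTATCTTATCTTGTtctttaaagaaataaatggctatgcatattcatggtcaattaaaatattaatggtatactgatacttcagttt
intergenic near Kit, chr5:75435618-75435718: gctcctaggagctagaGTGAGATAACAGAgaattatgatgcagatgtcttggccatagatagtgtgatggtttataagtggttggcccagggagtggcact
The match in the Antxr1 intron (score 8.9) and that near Trib2 (score 7.6) read AGATTA on their own strand, in place of AGATAA. The matches near Tbl1x (score 15.2), near Fam19a5 (score 15.1) and in the Msn intron (score 14.5) all read AGATAAGA. The summit in the Pid1 intron lies in a run of repeated GATA letters, and this region holds 18 GATA6 matches.

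The 1052 regions lay far from the starts of protein-coding genes and were rich in GATA6 motifs. Their median width was 494 bp (quartiles 387 and 633 bp, range 171 to 2210 bp), against 524 bp over all GATA6 regions. The sets described in the next paragraph were at 399 bp (heterochromatin), 418 bp (Late) and 533 bp (Early). By the GENCODE M21 annotation 520 summits (49.4%) were intergenic and 467 (44.4%) intronic, against 38.5% and 46% of all regions. A further 38 (3.61%) lay within 1 kb of a transcript start, against 12.4% of all regions. The nearest start of a protein-coding gene was 81.9 kb away in the median, against 31.1 kb over all regions and 50.1 to 55.8 kb in these sets. Over 100 kb away lay 45.7%, against 22.8% of all.

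The 3 sets used for comparison throughout were chosen by the same classes: 1742 Transient GATA6-only regions in facultative heterochromatin, 1171 Late GATA6-only regions in unmarked chromatin and 583 Early GATA6-only regions in unmarked chromatin. The summit fell in soft-masked sequence, the annotation of repeats in the genome file, in 301 of the Transient unmarked regions (28.6%). The same share was 15.8% over all regions, 13.5% in the heterochromatin set, 16.3% in the Late set and 22.1% in the Early set. Reads of low mapping quality had been removed, and the part of repeats in the accessibility values was not tested: the median change on day 2 was 0.09 where the summit was masked and 0.13 where it was not (log2 scale, defined with the changes). The GC content had a median of 40.8%, as in all unmarked regions (40.8%), against 45.2% over all GATA6 regions.

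GATA6 motif matches were stronger than over all regions. A deposited match was listed for 1011 regions (96.1%, against 89.7% of all). The best match had a median score of 12 (quartiles 10.1 and 13.8, highest 15.2), against 10.2 over all regions. This median was 11.6 in the heterochromatin set, 10.1 in the Late set and 12.2 in the Early set. Matches numbered 3.23 per region and 5.96 per kb, against 2.55 and 4.05 over all regions, and the Early set held more (7.35 per kb). The best match lay a median of 41 bp from the summit, against 51 bp, and within 50 bp in 587 regions (58.1% of those with a match, against 50%). In the heterochromatin set and the Early set it lay closer, at 36 bp in both and within 50 bp in 63.7% and 61.4%. The letters AGATAAG stood in 568 of 1005 best matches with 13 readable letters (56.5%), against 38.2% of those of all regions. Both strands of the 301 bases around the summit were also searched for letters. AGATAA was present in 842 regions (80%), against 58.1% of all windows of this length. The shorter letters GATA, which every AGATAA contains, were present in 1049 (99.7%), against 95.6%.

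**Figure D1:**
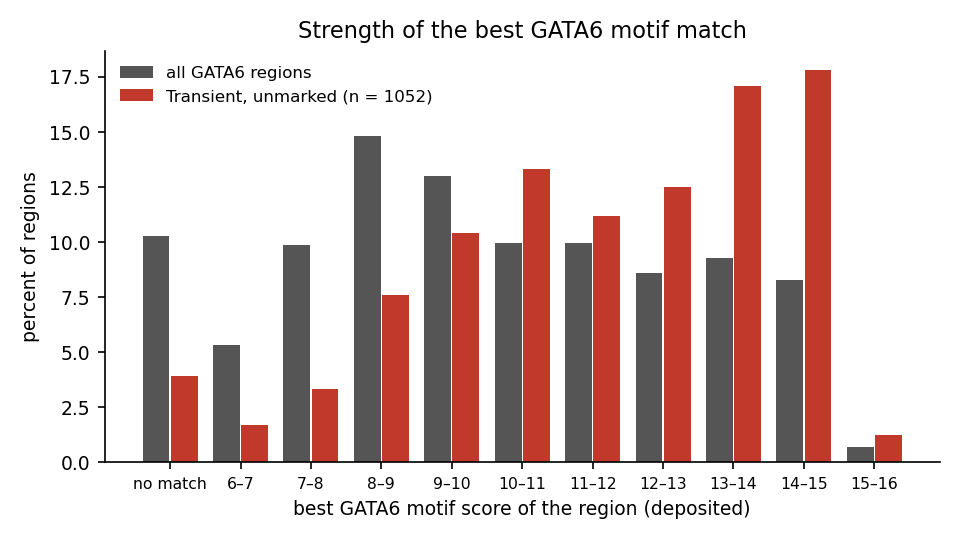
Percent of regions (y axis) by the deposited score of the best GATA6 motif match (x axis, bins of 1 score unit, with regions without a match first), for the 1052 Transient unmarked regions and for all 42403 GATA6 regions. The Transient unmarked regions were more often in the 2 bins from 13 to 15 (17.1% and 17.8%, against 9.3% and 8.26%) and had fewer regions with no match (3.9%).

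Motifs of the factors that did not bind there were common too. A match for SOX17, an endoderm factor with an HMG box, was listed for 715 regions (68%, against 69.2% of all). One for the composite OCT4:SOX2 motif of ES cells was listed for 876 (83.3%, against 71.5%). All unmarked regions had an OCT4:SOX2 match at a similar share, 81.7%, and the Early set at 79.1%, whereas the heterochromatin and Late sets had it at 70.4% and 69.8%. Such shares depend on width, and all unmarked regions were wider (median 594 bp). Per kb the Transient unmarked regions held 3.88 OCT4:SOX2 matches, against 3.13 in all unmarked regions and 2.64 over all GATA6 regions. The heterochromatin, Early and Late sets held 3.08, 3.02 and 2.9 per kb. ESRRB, an orphan nuclear receptor of ES cells, had a match in 350 regions (33.3%, against 36.3%). The absence of SOX17 and PTF peaks was part of the choice, so these counts say only that the letters were present.

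Before induction these regions were closed. The deposited d0 class was closed for 1034 (98.3%) and moderate for 18, and none was in the accessible class. Averaged accessibility in RPM, reads scaled to the size of the library and not divided by width, had a median of 0.0398 RPM at d0, at percentile 25.4 of all GATA6 regions, whose median was 0.0777 RPM. The highest was 0.26 RPM, in an intergenic region 7.08 kb from the start of Usp8, a deubiquitinase, which holds 15 GATA6 matches (chr2:126699697-126701906). Regions near Btg3 (0.23 RPM) and in a non-coding exon annotated in Ndfip2 (0.193 RPM) followed.

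Over the time course the averaged median was highest on day 1 among the KH2 groups and was back near its starting level on day 4. The 1052 regions had medians of 0.0398 RPM before induction, 0.0424 RPM at 8 h, 0.0473 RPM at 16 h and 0.0513 RPM on day 1. They stood at 0.0477 RPM on day 2, 0.0391 RPM on day 4 and 0.0554 RPM in XEN cells. All GATA6 regions together went from 0.0777 RPM at d0 to 0.161 on day 2 and 0.129 on day 4. The level of the Transient unmarked regions was thus at percentile 15.5 of all regions on day 2, lower than at d0. Averages over a group have no spread of their own, and the steps between neighbouring groups are set against the libraries in the account of single libraries.

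Changes were taken on the scale of log2(RPM + 0.03), which understates changes of low values. The median change from d0 was 0.07 (8 h), 0.14 (16 h), 0.20 (day 1), 0.12 (day 2) and -0.03 (day 4). The same medians over all regions were 0.03, 0.11, 0.31, 0.69 and 0.52. Relative to the shift of all regions they were 0.04, 0.03, -0.11, -0.57 and -0.54 at the same times. The sign on day 1 and day 2 thus depended on the scaling. The heterochromatin set rose to 0.33 on day 2 and was at 0.06 on day 4, the Early set was at 0.61 and 0.42, and the Late set rose from 0.32 to 0.60. From day 2 to day 4 the value was lower in 68.3% of the Transient unmarked regions, with a median change of -0.19. Over all regions this was so in 65.8%, with a median of -0.24, in the heterochromatin set in 74.5% (-0.29) and in the Early set in 70.5% (-0.24).

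**Figure D2:**
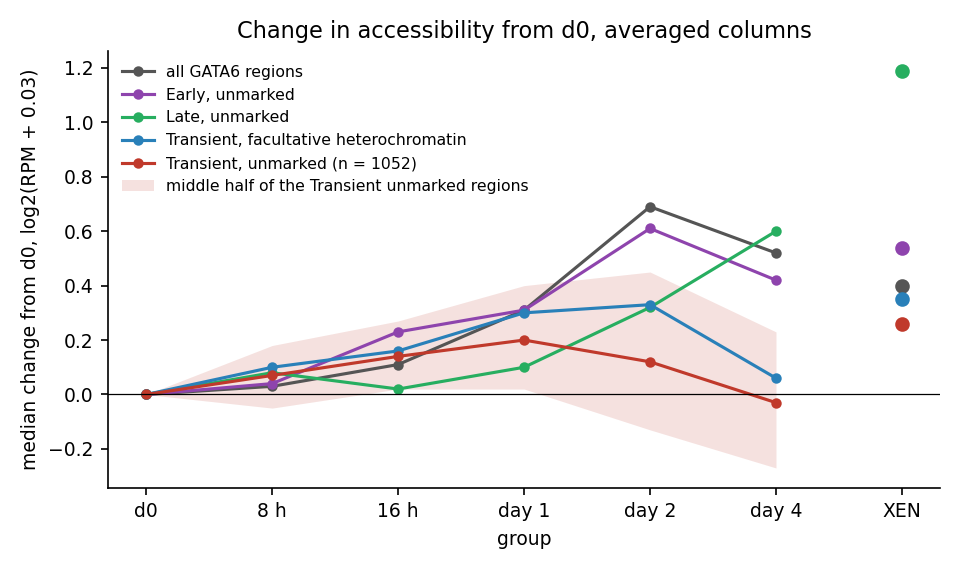
Median change in accessibility from d0 (y axis, difference of log2(RPM + 0.03) between averaged columns) in each group (x axis, XEN cells set apart) for the Transient unmarked regions, 3 similar sets and all GATA6 regions, with the quartiles of the Transient unmarked regions as a band. Their median was highest on day 1 (0.20) and was back at -0.03 on day 4, while that of all regions was 0.69 on day 2.

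In the averaged columns the time of highest accessibility was spread over the course. Among the 6 KH2 groups it was day 2 in 306 regions (29.1%, against 45% of all regions) and day 1 in 271 (25.8%, against 13.5%). It was 16 h in 192 (18.3%, against 4.37%), 8 h in 156 (14.8%, against 5.94%), day 4 in 116 (11%, against 28%) and d0 in 11. The day 2 share was 41% in the heterochromatin set, 54% in the Early set and 22.5% in the Late set. These regions hold few reads, and the times of highest values were not tested against the spread between libraries. Values above d0 were found in 65.9% of regions after 8 h, in 78.1% after 16 h, in 77.3% after 1 day, in 62% after 2 days and in 46.9% after 4 days. The same shares over all regions were 55.7%, 69.7%, 82.8%, 79.9% and 70.7%, lower at 8 h and 16 h and higher from day 1. Few moved past 2-fold. By the averaged columns 15 regions (1.43%, against 4.55% of all regions) had risen past 2-fold on day 1, 77 (7.32%, against 36.8% of all regions) on day 2 and 22 (2.09%, against 31%) on day 4. Falls past 2-fold on day 4 numbered 5 (0.475%, against 7.27%). This share was 0.285% over all regions closed at d0, which have little signal to lose. It was 0.517% in the heterochromatin set, 0.515% in the Early set and 0% in the Late set.

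Single libraries gave the spread behind these averages. Whole reads of 16 libraries could be recovered from the deposited averages at 24727 regions, among them 532 of the 1052 (50.6%). They cover all groups but d0, with 2 libraries each for day 4 and XEN cells and 3 for each other group. The letters A, B and C name the libraries of a group from largest to smallest, and 8 h had to serve as the baseline of all tests. The 532 regions resembled the rest in the averages, with a d0 median of 0.0423 against 0.0377 RPM and a day 2 change of 0.10 against 0.13. Library sizes were 181 to 288 M reads, with 541455 to 1995505 reads in recovered regions. XEN library B was smaller, at 43.3 M and 177620 reads. The median region held 5 to 14 reads per library, and 2 reads in XEN library B, where 16.4% of the 532 regions had none. Library C of the 8 h group stood apart, with the lowest median of all libraries. As a check of the labels, regions nearest to Gata6, Gata4, Sox17 and Pdgfra had median changes of 1.31 to 1.72 from d0 to day 4. Those nearest to Pou5f1, Nanog and Esrrb changed by -0.69 to -0.24, whereas regions nearest to Klf4 went the other way (0.81).

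The median over the 532 regions was 0.0469, 0.0470 and 0.0237 RPM in the 8 h libraries and 0.0591, 0.0383 and 0.0366 RPM in those of 16 h. At day 1 it was 0.0459, 0.0622 and 0.0497 RPM. It was 0.0437, 0.0429 and 0.0460 RPM on day 2, 0.0352 and 0.0374 RPM on day 4, and 0.0416 and 0.0462 RPM in XEN cells. The day 1 and 8 h libraries overlapped, as did those of 16 h, and both day 4 libraries were lower than all 3 of day 2. As means of log2 medians the groups were at -3.87 ± 0.30 (SD, n = 3) for 8 h, -3.76 ± 0.23 (n = 3) for 16 h and -3.60 ± 0.15 (n = 3) for day 1. They were at -3.75 ± 0.03 (n = 3) for day 2, -3.92 ± 0.03 (n = 2) for day 4 and -3.76 ± 0.06 (n = 2) for XEN cells. The rise of 0.12 from 8 h to day 2 was smaller than the spread at 8 h and became -0.05 without 8 h library C. Day 4 was 0.16 lower than day 2 on the log2 scale, a difference beyond the SDs of both groups. A library median moves in steps of 1 read, worth 0.07 to 0.12 outside XEN library B, so SDs under that step do not measure how close libraries were. With each library centred on the median of all regions, day 4 was 0.11 higher than day 2.

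**Figure D3:**
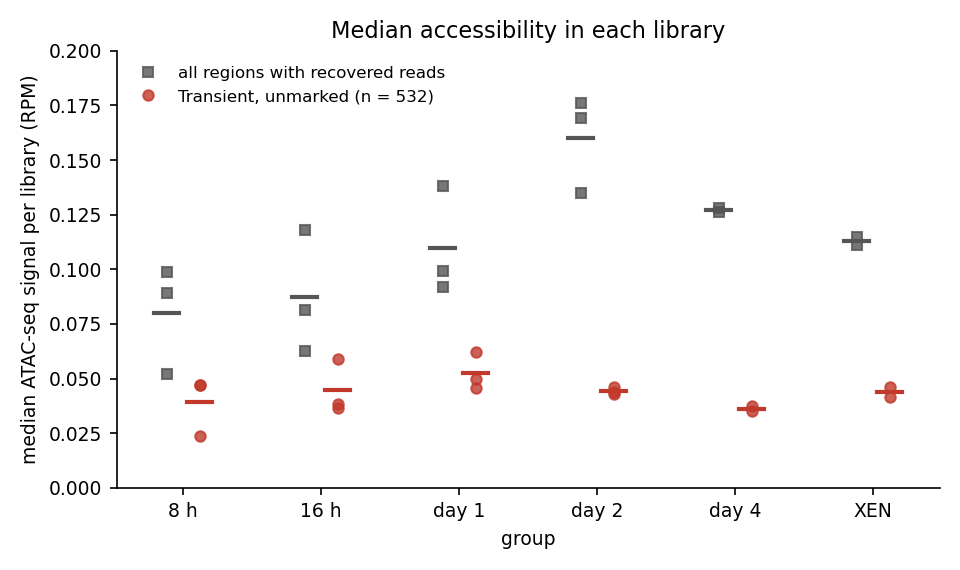
Median ATAC-seq signal in RPM (y axis) of every recovered library by group (x axis), over the 532 Transient unmarked regions and over all 24727 regions with recovered reads, with bars at the group means. The Transient unmarked regions stayed between 0.0237 and 0.0622 RPM in every library, while all regions reached 0.135 to 0.176 RPM on day 2.

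The part of the signal that fell in these regions was smaller late in the course, although their summed signal was not smaller on day 2. In the averaged columns the sum over the 1052 regions was 54.7 RPM at 8 h, 69.7 RPM on day 2 and 51.6 RPM on day 4, while that over all regions was 6432, 14053 and 10635 RPM. Of all RPM in recovered regions, the 532 held 0.653% to 0.835% in the 8 h libraries, 0.681% to 0.805% in those of 16 h and 0.586% to 0.676% in those of day 1. The shares were 0.361% to 0.491% on day 2 and 0.39% to 0.409% on day 4. All day 2 and day 4 libraries lay below all earlier ones. The heterochromatin set took the same course, with mean shares of 1.65% at 8 h, 1.18% on day 2 and 1.02% on day 4. In XEN cells the share was 0.592% and 0.722%, within the range of the early groups.

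On day 1, limma called 10 of the 532 regions higher than at 8 h (1.88%, against 5.36% of all regions) and 1 lower (0.188%, against 0.0162%). A call required an adjusted p under 0.05 over all 24727 regions and a change past 2-fold. The 10 became 16 without 8 h library B, 1 without 8 h library C, 0 without day 1 library B and 5 without day 1 library C. The single lower call was lost without any one of the 3 libraries of 8 h or of libraries B and C of day 1. The region with the smallest adjusted p lies in an intron of Ctnna2, an alpha-catenin of neurons, 66.6 kb from its start (chr6:77912805-77913286). It had 0.0469, 0.0141 and 0.00949 RPM at 8 h, 0.0863, 0.0383 and 0.0679 RPM at 16 h, and 0.0956, 0.164 and 0.105 RPM on day 1. Values were 0.271, 0.31 and 0.184 RPM on day 2, 0.0703 and 0.208 RPM on day 4 and 0.0832 and 0.0923 RPM in XEN cells. Every library of day 1 and later was above every 8 h library. The change from 8 h was 1.54 ± 0.35 (SE) on day 1 by limma (adjusted p = 0.00171, 3 against 3 libraries), lost without day 1 library B, and 2.45 ± 0.35 on day 2 (limma, adjusted p = 3.37e-11).

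Of the other named calls on day 1, the region near BC024063 rose by a log2 change of 1.26 ± 0.34 (limma, adjusted p = 0.0103), from 0.0142 to 0.0329 RPM in the 8 h libraries to 0.0842 to 0.12 RPM on day 1, and was at 0.0393 to 0.0775 RPM on day 2. The region 217 kb from Snx13, a sorting nexin, rose by 1.30 ± 0.35 (limma, adjusted p = 0.0117) and held 0.215 to 0.306 RPM on day 1, above all 8 h libraries. Neither call held without 8 h library C or without day 1 library B. The first was also lost without day 1 library C and the second without 8 h library A. The region called lower lies within 1 kb of a transcript start, 3.4 kb from the start of Catip, with 0.0570 to 0.0987 RPM at 8 h and 0.0110 to 0.0383 RPM on day 1.

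On day 2, 39 of the 532 regions were called higher than at 8 h (7.33%, against 38% of all regions) and 2 lower (0.376%, against 1.27%). Without the requirement of 2-fold, 81 were higher (15.2%, against 47.3%) and 23 lower (4.32%, against 2.93%). In the similar sets the share called higher was 16.2% for the heterochromatin set, 14.5% for the Late set and 27.2% for the Early set, and it was 46% over all unmarked regions and 42.2% over all regions closed at d0. The share called lower was 0.841% for the heterochromatin set, 0.175% for the Late set and 0% for the Early set. It was 0.153% over all unmarked regions and 0.208% over all regions closed at d0. The count of 39 became 29 without 8 h library C and 58 without 8 h library B. The 2 lower calls became 17 without 8 h library C, 1 without 8 h library B, 5 without day 2 library A and 6 without day 2 library C. When each library was centred on the median of all regions, a scaling that sets the general opening to 0, 8 of the 532 were higher and 159 lower, and quantile normalisation gave 9 and 54. A call also needed a large step: from the median level of 0.0423 RPM at 8 h, the 2-fold limit on the log2(RPM + 0.03) scale is a rise to 0.115 RPM, or 2.71-fold. A lower call from that level needs most of the signal to be lost, so low regions could hardly be called lower.

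**Figure D4:**
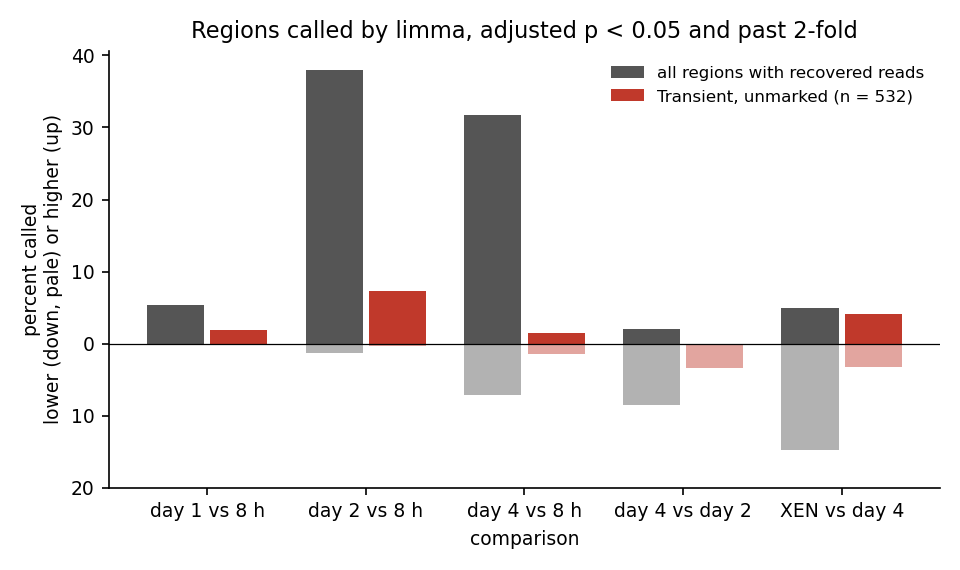
Percent of regions called by limma (y axis; higher above 0, lower below 0 in pale colour) in each comparison (x axis), for the 532 Transient unmarked regions and all 24727 regions with recovered reads. At day 2 against 8 h 7.33% of the Transient unmarked regions were called higher, against 38% of all, and on day 4 1.5% against 31.7%.

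Rises on day 2 that were called under each of 22 alternative settings were found at Antxr1, Trib2, Cilp and Npsr1, whose summit sequences are given above, and at Ctnna2. The region in an intron of Antxr1, a cell surface receptor for collagen and anthrax toxin, had 0.0469, 0.0517 and 0 RPM at 8 h, 0.0727, 0.0383 and 0.0366 RPM at 16 h, and 0.0497, 0.138 and 0.0552 RPM on day 1 (chr6:87237309-87237715). It had 0.166, 0.281 and 0.315 RPM on day 2, 0.146 and 0.0962 RPM on day 4 and 0.101 and 0.0231 RPM in XEN cells. All 3 day 2 libraries were above every other library, and the change was 2.27 ± 0.34 (limma, adjusted p = 5.86e-10). The region near Cilp, a gene of cartilage matrix, had 0.0891, 0.113 and 0.0142 RPM at 8 h, and 0.354, 0.462 and 0.358 RPM on day 2 (chr9:65252762-65253222). It had 0.211 and 0.257 RPM on day 4 and 0.0694 and 0.0462 RPM in XEN cells. Day 2 and day 4 libraries did not overlap with each other or with 8 h and XEN, with a day 2 change of 2.20 ± 0.35 (limma, adjusted p = 4.55e-09).

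Near Npsr1, the neuropeptide S receptor, values were 0.0984, 0.0658 and 0.0237 RPM at 8 h, and 0.262, 0.352 and 0.329 RPM on day 2 (chr9:24038177-24038614). They were 0.136 and 0.214 RPM on day 4 and 0.0277 and 0.0231 RPM in XEN cells. The change was 1.97 ± 0.35 on day 2 (limma, adjusted p = 1.42e-07), and in XEN cells both libraries were below both of day 4 (-1.86 ± 0.43, limma, adjusted p = 0.000386). The region in an intron of the non-coding gene Gm36128, 705 kb from Trib2, a pseudokinase, had 0.0469, 0.0799 and 0.00949 RPM at 8 h, and 0.201, 0.3 and 0.247 RPM on day 2 (chr12:15111647-15112137). Both day 4 libraries had 0.171 RPM, and XEN cells 0.0416 and 0.0462 RPM. It rose by 1.99 ± 0.34 (limma, adjusted p = 6.26e-08), with all day 2 and day 4 libraries above those of 8 h. These were 5 of 43 named calls, and each of the other 38 was lost under at least 1 setting. Near Fat3, an atypical cadherin gene 477 kb away, a region without any listed GATA6 match rose from 0.00938 to 0.0235 RPM at 8 h to 0.109 to 0.210 RPM on day 2 (2.02 ± 0.32, limma, adjusted p = 3.34e-09). Of the 22 settings this call was lost under 1, a pseudocount of 0.15 RPM.

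The lower calls on day 2 were the Pid1 intron and an intron of Ap2b1. Pid1 encodes an adaptor with a phosphotyrosine interaction domain, and its region (chr1:84214104-84215977) had 0.169, 0.23 and 0.18 RPM at 8 h, 0.254, 0.168 and 0.131 RPM at 16 h, and 0.172, 0.213 and 0.166 RPM on day 1. It had 0.083, 0.0619 and 0.0968 RPM on day 2, 0.0904 and 0.123 RPM on day 4 and 0.139 RPM in both XEN libraries. All day 2 libraries lay below all earlier ones, with a change of -1.02 ± 0.35 (limma, adjusted p = 0.0101). In the Ap2b1 intron, within a gene for a subunit of the clathrin adaptor AP-2, values went from 0.0807 to 0.169 RPM at 8 h to 0.0291 to 0.0524 RPM on day 2 and 0.0854 to 0.107 RPM on day 4 (-1.04 ± 0.34 on day 2, limma, adjusted p = 0.00633). Both calls were lost without 8 h library B, and without day 2 library B for Pid1 or day 2 library C for Ap2b1.

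**Figure D5:**
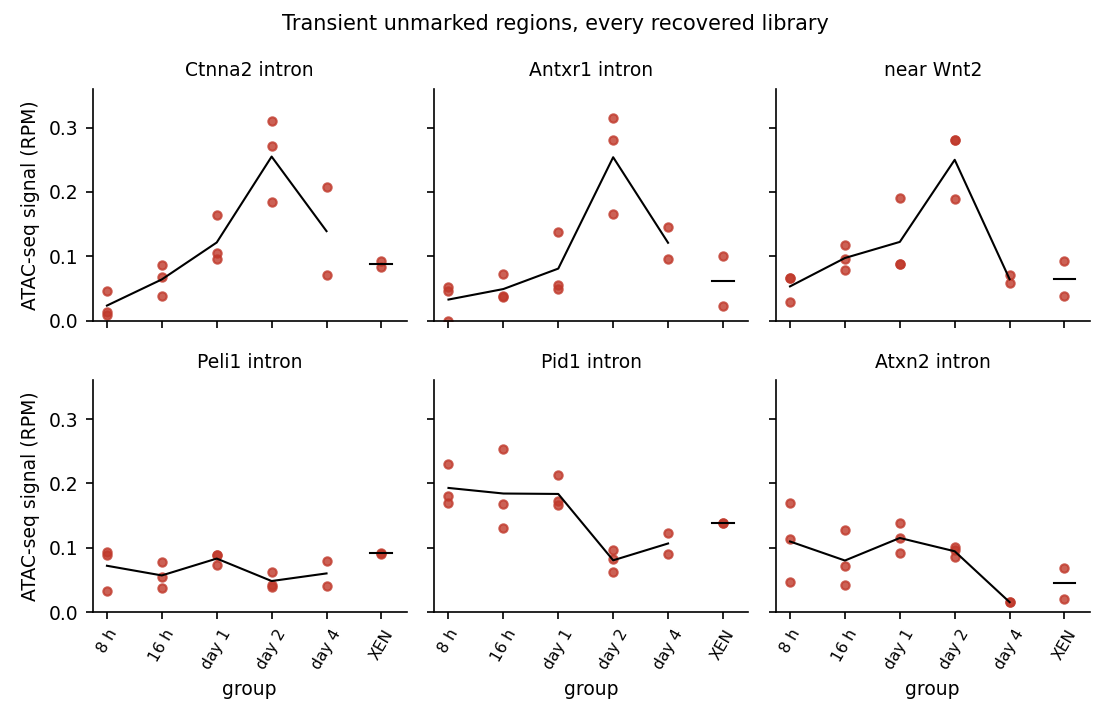
ATAC-seq signal in RPM (y axis) in every recovered library (points) by group (x axis) at 6 of the Transient unmarked regions, with lines through the group means of the KH2 cells and bars at the XEN means. The Ctnna2, Antxr1 and Wnt2 regions were highest on day 2, the Pid1 intron fell on day 2, the Atxn2 intron fell on day 4 to 0.0151 and 0.0160 RPM, and the Peli1 intron, with a motif score of 15.1, was called in no comparison.

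The 39 regions called higher on day 2 are described here by properties that did not enter the call directly. Their best GATA6 matches were weaker (median score 10.7, against 12.2 in the 428 regions not called either way at an adjusted p under 0.05) and fewer (2.26 against 3.45 per region), and 7 of the 39 (17.9%) were classed as losing GATA6 binding on day 2 when Oct4 was knocked down, against 3.97% of the 428. They lay 116 kb from the nearest coding gene start in the median, against 71.9 kb. The 23 regions lower at an adjusted p under 0.05 were wider (median 762 bp) and had stronger matches (median score 13.6, 4.04 per region). Their median at 8 h was 0.0784 RPM, against 0.0393 RPM in the 428. RPM is not divided by width and low values can hardly be called lower. Width and matches in the 23 are thus not independent of the call. Median accessibility over the 39, chosen on the 8 h and day 2 values, was 0.0470 RPM at 8 h, 0.0832 on day 1, 0.172 on day 2, 0.0885 on day 4 and 0.0439 in XEN cells.

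On day 4, 8 of the 532 regions were called higher than at 8 h (1.5%, against 31.7% of all regions) and 8 lower (1.5%, against 7.09%). Without the requirement of 2-fold, 13 were higher (2.44%, against 36.5%) and 23 lower (4.32%, against 8.76%). The share called higher was 4.21% in the heterochromatin set, 15.1% in the Early set and 24.1% in the Late set. The share called lower was 1.78% in the heterochromatin set and 0% in the Early and Late sets. It was 0.995% over all unmarked regions and 0.758% over all regions closed at d0, below that of the 532. Without 8 h library C the counts were 5 higher and 26 lower, and without 8 h library B 15 and 4, while centring on all regions gave 1 and 99. The region in an Atxn2 intron, nearest to the start of Sh2b3, an adaptor of cytokine signalling, had 0.113, 0.169 and 0.0475 RPM at 8 h, and 0.0961, 0.0857 and 0.102 RPM on day 2 (chr5:121793506-121793931). It had 0.0151 and 0.0160 RPM on day 4 and 0.0208 and 0.0693 RPM in XEN cells. Both day 4 libraries were below every other library, and the change from 8 h was -1.51 ± 0.38 (limma, adjusted p = 0.000366). It was 1 of the 18 regions of the moderate class at d0.

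The region 7.12 kb from the start of Tspan3, a tetraspanin gene, had 0.192, 0.31 and 0.123 RPM at 8 h, and 0.17, 0.105 and 0.121 RPM on day 2 (chr9:56171990-56172996). It had 0.0502 and 0.0748 RPM on day 4 and 0.194 and 0.208 RPM in XEN cells. Both day 4 libraries were the lowest of all, with changes of -1.30 ± 0.40 from 8 h (limma, adjusted p = 0.00355) and 1.33 ± 0.43 from day 4 to XEN cells (limma, adjusted p = 0.0163). The first call was lost without day 4 library A and the second without any one of the day 4 and XEN libraries. Near Fam50b the same course was seen, from 0.0807 to 0.15 RPM at 8 h to 0.0251 and 0.0374 RPM on day 4 (-1.28 ± 0.39, limma, adjusted p = 0.00372), a call also lost without day 4 library A. In the averaged columns the largest falls from d0 were in these regions near Sh2b3 and Fam50b, and in intergenic regions near Tm4sf1 (0.0907 to 0.0231 RPM) and Thoc2 (0.0983 to 0.0316 RPM). The largest rises from d0 to day 4 were in introns of Naaladl2 (0.0193 to 0.165 RPM), Pcsk2 (0.0192 to 0.148 RPM) and Cadm2 (0.0484 to 0.189 RPM), and in the region near Trib2 (0.0381 to 0.176 RPM). The Naaladl2 region had no listed GATA6 match and was at 0.0167 RPM in XEN cells.

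From day 2 to day 4, 18 of the 532 regions were called lower (3.38%, against 8.47% of all regions) and limma called 0 higher (background 2.07%), with 11 higher at an unadjusted p under 0.05. The share lower was 3.78% over all unmarked regions and 4.19% over all regions closed at d0, near that of the 532. The 18 fell to 3 without either day 4 library, to 7 without day 2 library B and to 11 without day 2 library C, and 1 region was called higher without day 2 library A. The region near Wnt2, a secreted signalling ligand, had 0.0656, 0.0658 and 0.0285 RPM at 8 h, and 0.28, 0.281 and 0.189 RPM on day 2 (chr6:17959373-17959798). It had 0.0703 and 0.0588 RPM on day 4 and 0.0381 and 0.0923 RPM in XEN cells. All 3 day 2 libraries exceeded both day 4 libraries, and the change was -1.55 ± 0.39 (limma, adjusted p = 0.00346). The region in an intron of Cobl, an actin nucleator, fell by a similar step from 0.149 to 0.248 RPM on day 2 to 0.0804 and 0.0321 RPM on day 4 (-1.53 ± 0.39, limma, adjusted p = 0.00354). The region near Rergl fell from 0.199 to 0.284 RPM to 0.0653 and 0.0534 RPM (-1.51 ± 0.39, limma, adjusted p = 0.00421). The calls near Wnt2 and Rergl were lost without either day 4 library, and that at Cobl without day 4 library B. An intergenic X-linked region near Cldn34c4, without recovered reads, was named for a large rise to day 2 that was followed by a fall. Its course was thus fixed by the choice, with averages of 0.0361 RPM at d0, 0.251 on day 2 and 0.0944 on day 4.

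XEN cells had an averaged median of 0.0554 RPM. The averages appear to contain 1 added read per library, which is worth more RPM in the shallow XEN library, and the place of XEN cells among the groups depended on it. With it the XEN median was above that of every KH2 group. Without it, in the libraries of the 532 regions, the mean XEN median was 0.0439 RPM, below day 1 (0.0526), 16 h (0.0447) and day 2 (0.0442). The averaged median change from d0 was 0.26, against 0.40 over all regions and 1.19 in the Late set. When the lowest value of each column was subtracted it was 0.12, against 0.23 on day 1. Against day 4, limma called 22 of the 532 regions higher (4.14%, against 4.89% of all regions) and 17 lower (3.2%, against 14.8%). XEN library B decided both counts, which were 2 and 2 without it. Without day 4 library A they were 8 and 7, without day 4 library B 6 and 5, and without XEN library A 17 lower calls became 29. The Exoc4 intron, within a gene for an exocyst subunit, had 0.0234, 0.0329 and 0.00475 RPM at 8 h, and 0.0175, 0.0143 and 0.00484 RPM on day 2 (chr6:33530660-33531343). It had 0 and 0.0160 RPM on day 4 and 0.0694 and 0.0923 RPM in XEN cells. Both XEN libraries were above every KH2 library, with a change of 1.57 ± 0.36 from day 4 (limma, adjusted p = 0.000382), lost without day 4 library A. A region in a Ttc8 intron rose from 0.0301 and 0.0267 RPM to 0.0867 and 0.185 RPM (1.44 ± 0.42, limma, adjusted p = 0.00632). One in a Mipol1 intron fell from 0.176 and 0.160 RPM to 0.0347 and 0.0231 RPM (-1.76 ± 0.43, limma, adjusted p = 0.00094). The call at Ttc8 was lost without either day 4 library or without XEN library B, and that at Mipol1 held when any one library was left out.

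Rises past 2-fold on day 2 were not more frequent where GATA6 motifs were stronger. The 506 regions with a best score at or above the median had a median day 2 change of 0.10, and 4.15% rose past 2-fold, against 0.14 and 10.3% in the 546 with lower scores or no match. Of the 41 regions without a listed match, 9 (22%) rose past 2-fold on day 2 and the median change was 0.25, against 6.73% and 0.11 among those with a match. In the 107 regions with 6 or more matches the median change was 0.03 and 2 rose past 2-fold. Among the highest scores, the region near Tbl1x, a corepressor subunit gene, went from 0.0754 RPM at d0 to 0.0400 on day 2, that near Fam19a5 from 0.0284 to 0.0329, and that near Diaph2 from 0.0177 to 0.0516 and back to 0.0130 on day 4. The Peli1 intron, within a ubiquitin ligase gene, held 0.0938, 0.0893 and 0.0332 RPM at 8 h, 0.0393, 0.0429 and 0.0629 RPM on day 2 and 0.0402 and 0.0802 RPM on day 4 (chr11:21125336-21126201). These libraries overlapped, and limma gave a day 2 change of -0.33 ± 0.34 (adjusted p = 0.431). Regions are not replicates of a condition, so these contrasts carry no test and describe the averaged columns only.

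Regions differed also by Oct4 dependence, motif content and starting level. GATA6 binding on day 2 was deposited as decreased on Oct4 knockdown in 54 regions (5.13%, against 6.25% of all) and as increased in 0 (against 8.57%), with 998 unchanged. The heterochromatin set likewise had 0 increased, with 5.51% decreased. The 54 had a median of 0.0493 RPM at d0, 0.113 RPM on day 2 and 0.0657 RPM on day 4, and a day 2 change of 0.50 with 12 past 2-fold (22.2%). The 998 were at 0.0393, 0.0460 and 0.0386 RPM, with a change of 0.10 and 6.51% past 2-fold. The 54 were also wider (median 628 against 491 bp), and a class called from binding on day 2 depends on how much was bound there. Without an OCT4:SOX2 match 13.1% of 176 regions rose past 2-fold on day 2 (median change 0.28), against 6.16% of 876 with one (0.09). The 18 regions of the moderate class were at 0.083 RPM at d0, 0.109 RPM on day 2, 0.0493 RPM on day 4 and 0.0448 RPM in XEN cells. Their changes were 0.24, -0.41 and -0.54, against 0.12, -0.02 and 0.27 in the closed class. A high d0 value enters such a change with the opposite sign. Between the 351 regions with the lowest and the 351 with the highest d0 values, the day 4 changes were 0.04 and -0.14.

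Genes of pluripotency and of PrE were rare among the neighbours. Of 25 pluripotency genes 3 were the nearest gene of a region each (0.285% of regions, against 0.564% of all GATA6 regions), and of 37 PrE genes 4 were (0.38%, against 0.795%). The region 389 kb from Tbx3, a T-box factor of naive pluripotency, was nearly without signal (0.0149 RPM at d0, 0.0105 on day 2). The one 18.8 kb from Tet2, which oxidises methylated cytosine, was at 0.136 RPM at d0, 0.130 on day 2 and 0.106 on day 4, and the one 350 kb from Dppa4 at 0.0638, 0.0528 and 0.0316 RPM. The region 142 kb from Pdgfra, the receptor that marks PrE, had 0.0237 to 0.0329 RPM at 8 h, 0.00953 to 0.0629 on day 2 and 0.0201 and 0.0321 on day 4, all overlapping, with 0.0381 and 0.0693 in XEN cells. Near Kit, the receptor of stem cell factor, values were 0.117, 0.0987 and 0.0475 RPM at 8 h, 0.0151 and 0.0321 RPM on day 4 and 0.0832 and 0.162 RPM in XEN cells (chr5:75435009-75435819). Both day 4 libraries were below all others, except that 1 library of 16 h (0.0313 RPM) lay between them, with changes of -1.10 ± 0.38 from 8 h (limma, adjusted p = 0.0104) and 1.48 ± 0.41 from day 4 to XEN cells (limma, adjusted p = 0.00431). Both calls were lost without day 4 library A, the first also without 8 h library A and the second without XEN library B. In an intron of Cubn, the endocytic receptor cubilin, averaged values rose from 0.0244 RPM at d0 to 0.0508 on day 2 and 0.0877 on day 4.

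Among the regions closest to the median course over the KH2 groups were those at Tram2 and Msn. Within 1 kb of a transcript start in Tram2, a translocation-associated membrane protein gene, values were 0.0375, 0.0611 and 0.0142 RPM at 8 h, and 0.0497, 0.0622 and 0.0497 RPM on day 1 (chr1:21044134-21044654). They were 0.0393, 0.0381 and 0.0629 RPM on day 2 and 0.0251 and 0.0321 RPM on day 4. The libraries of all these groups overlapped with those of 8 h, and limma called no change (day 2: 0.23 ± 0.32, adjusted p = 0.581). In the Msn intron, within the gene for the membrane linker moesin, the averages were 0.0399 RPM at d0, 0.0524 on day 1, 0.0573 on day 2, 0.0357 on day 4 and 0.0918 in XEN cells, and the match has a score of 14.5. In XEN cells the averaged changes from d0 were 0.70 (Tram2) and 0.80 (Msn), above the upper quartile of the 1052 regions (0.56). The other region chosen by this rule, near 4921536K21Rik, was below it at 0.30. The XEN averages hold the added read of the shallow library. From day 4 to XEN cells limma called no change at Tram2 (0.76 ± 0.40, adjusted p = 0.162).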

How the data were processed

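For ATAC-seq the authors used cutadapt for trimming, Bowtie2 for alignment to mm10, SAMtools for removal of duplicate and poorly mapped reads, and bamsignals to count short, Tn5-shifted fragments per GATA6 region. The deposited RPM values were corrected for library size and averaged by the authors over the libraries of a group, so the averaged columns hold no replicate spread. The motif score of each region was deposited by the authors from FIMO and JASPAR matrices. GATA6 classes came from k-means of ChIP signal, SOX17 and PTF classes from MACS2 peaks, and the Oct4 knockdown class from the authors' DESeq2 test. The table also held 52 columns of other assays, not used here.

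Per-replicate columns had been assumed, and whole reads of 16 libraries were recovered instead (values within 1e-07 reads of a whole number, at 24727 of 24753 regions with over 12 significant digits). The d0 average was not resolved, XEN cells gave 2 libraries for 3 samples, and 1 read per library, present at every region, was subtracted. limma 3.58.1 (R 4.3.3, eBayes with trend) was fitted to log2(RPM + 0.03) over all 16 libraries and 24727 regions with Benjamini-Hochberg adjustment. The fit was also run on simulated data, with rises only, in regions with more signal than most Transient unmarked regions. That run thus did not cover low regions or falls. By the study's methods the libraries of a group came from separate cultures, 3 per group and 2 for day 4. Region starts, which the table counts from 0, are given from 1. Sequences and soft-masking come from GRCm38.p6 and genes from GENCODE M21. Nearest genes are protein-coding starts nearest to the summit. Named regions were the 4 largest rises and 4 largest falls from d0 to day 4, the 4 largest rises to day 2 that then fell, the 4 highest GATA6 scores, the 3 highest d0 values, the 3 closest to the median course, those nearest to a listed gene, and up to 3 calls of smallest adjusted p per direction and comparison, outside chromosome 18. The regions and gene lists were chosen with earlier results of these data known. Alternatives were pseudocounts of 0.006 and 0.15 RPM, centring, quantile normalisation, a filter at a mean of 0.05 RPM, leaving out each library and, added after seeing the data, keeping the added read.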

Additional observations from a re-analysis of the deposited data

How the results depend on the processing

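No paired analysis was possible because the recovered libraries carry no replicate numbers. Counts of regions called among the 532 depended most on pseudocount and scaling. Day 1 against 8 h (10 higher, 1 lower) gave 0 lower at 0.006 RPM, 0 and 0 at 0.15 RPM, 1 and 6 when centred, 3 and 5 with quantile normalisation and 0 lower with the added read kept. Day 2 against 8 h (39 and 2) gave 72 and 19 at 0.006 RPM, 6 and 0 at 0.15 RPM, 8 and 159 when centred, 9 and 54 with quantile normalisation and 0 lower with the added read kept. Day 4 against 8 h (8 and 8) gave 13 and 21 at 0.006 RPM, 0 and 0 at 0.15 RPM, 1 and 99 when centred, 78 lower with quantile normalisation and 5 lower with the added read kept. Day 4 against day 2 (0 and 18) gave 0 lower at 0.15 RPM, 10 and 10 when centred and 11 lower with quantile normalisation. XEN against day 4 (22 and 17) gave 13 higher at 0.006 RPM, 0 and 0 at 0.15 RPM, 37 higher when centred, 36 with quantile normalisation, 9 with the filter on low values, which tested 227 of the 532, and 8 lower with the added read kept. A pseudocount of 0.15 RPM lies above most of these values and compresses their changes by construction. The cause of the other shifts was not tested.

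Without 1 library at a time, the counts ranged from 0 to 16 higher and 0 to 1 lower at day 1, 29 to 58 and 1 to 17 at day 2, 5 to 15 and 4 to 26 at day 4, 0 to 1 and 3 to 24 for day 4 against day 2, and 2 to 32 and 2 to 29 for XEN cells. Differences of library medians ranged from -0.05 to 0.21 (day 2 against 8 h), -0.22 to 0.04 (day 4 against 8 h) and -0.19 to -0.14 (day 4 against day 2).

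The median change at day 1 (0.20) was -0.19 when centred and -0.03 with quantile normalisation. That at day 2 (0.12) was 0.18 at 0.006 RPM, 0.04 at 0.15 RPM, -0.71 when centred, -0.28 with quantile normalisation and 0.29 in the 492 regions past the filter. That at day 4 (-0.03) was -0.58 and -0.37 under these scalings, and that in XEN cells (0.26) was 0.39 at 0.006 RPM, 0.10 at 0.15 RPM, -0.23 when centred, -0.27 with quantile normalisation, 0.12 with the lowest value subtracted and 0.19 with the filter. The filter took the mean over all groups, day 2 and XEN cells included. A region could thus pass it through a group in which it was high, and the filtered changes are not independent of it. The share past 2-fold in either direction at day 2 (7.32%, all higher) was 15.4%, 0.951% and 21.9% at 0.006 RPM, 0.15 RPM and when centred, and at day 4 (2.57%, of which 2.09% higher) 8.56%, 0% and 11.5%. When centred, 20.9% were lower at day 2 and 11.2% at day 4. Centred library medians differed by -0.69 (day 2 against 8 h), -0.58 (day 4 against 8 h) and 0.11 (day 4 against day 2), the last being -0.25 at 0.006 RPM and -0.06 at 0.15 RPM. The difference between closed and moderate regions (-0.12 at day 2, 0.38 at day 4) was -0.02 and 0.19 between the 351 lowest and the 351 highest regions by d0 value, and that between regions with and without a match (-0.14 and 0.01) was -0.04 and -0.03 between upper and lower scores. Of 43 named calls, 5 were kept under every alternative, 38 were lost at 0.15 RPM, 14 when centred and 28 without at least 1 library, and 0 changed direction. A call needed 2-fold on the log2(RPM + 0.03) scale, which for a rise is 2.71-fold at the median level and less at higher ones. For a fall the step is larger still at low values. The median region held 5 to 14 reads per library outside XEN library B, and d0 has no library values.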

Other observations

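Chromosome X held 82 of the 1052 regions (7.79%), against 2.92% of all GATA6 regions and 2% of all Transient regions. Unmarked regions as a whole had 9.3% on X, and 57.4% of the GATA6 regions on X were unmarked, against 10.2% to 21% on the autosomes. The 82 X-linked regions were at a median of 0.0344 RPM at d0, 0.0477 at day 2 and 0.0312 at day 4. Their median change at day 2 was 0.28, with 11 past 2-fold (13.4%), against 0.10 and 6.8% on the autosomes, and at day 4 the medians were -0.05 and -0.03. Chromosome 8 held 16 of the 1052 (1.52%), against 5.19% of all GATA6 regions, 5.31% of Transient and 2.94% of unmarked regions.

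The 1052 regions lay nearest to 887 protein-coding genes, 761 of them with 1 region each. Some genes had several, and those given here were picked by this count. Zfpm2, which encodes a cofactor that binds GATA zinc fingers (FOG2), was the nearest gene of 4 of the regions out of 6 GATA6 regions assigned to it. Fgf10, a ligand of FGF receptors, had 4 of 26, Klf6, a zinc finger factor, 4 of 33, and Cobl 4 of 15. The largest count was 5 of 12, at 1700015G11Rik. These counts were not tested.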
